A study of Homo sapiens with 6 samples.

Results

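GAS5 and 8 SNHG genes (SNHG1, SNHG5, SNHG6, SNHG7, SNHG8, SNHG12, SNHG15 and SNHG16) were chosen by name as long non-coding transcripts that host small nucleolar RNAs (snoRNAs). They were also chosen as being of the 5′ terminal oligopyrimidine (5′TOP) type, described below. All 9 were matched by symbol among 61552 gene identifiers, and all 9 passed the filter on low counts that kept 17084 genes. The data were read counts per gene from polyA-enriched RNA of MDA-MB-231 cells, an established triple-negative breast cancer (TNBC) line. The cells were grown for 24 h with 10 µM VNLG-152R, a retinamide that the study describes as a degrader of the MNK kinases (3 libraries), or with DMSO as vehicle control (3 libraries). The line is a single source, and the labels do not say whether the replicates came from separate cultures, so the p-values measure the spread between these libraries, which may be technical.

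A host gene of this kind is transcribed as a precursor whose introns carry the snoRNAs. Box C/D snoRNAs guide 2′-O-methylation, and box H/ACA snoRNAs guide pseudouridylation, mostly of ribosomal RNA. The spliced host RNA of several of these genes starts with a 5′ terminal oligopyrimidine tract (5′TOP), as ribosomal protein mRNAs do, and is engaged by ribosomes on short reading frames, which exposes it to nonsense-mediated decay (NMD). GAS5, growth arrest specific 5, got its name because its RNA accumulates in growth-arrested cells. The level of the spliced host RNA is therefore not a readout of the snoRNAs themselves.

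Depth was 69923839 to 82151816 counts in genes with VNLG-152R and 60122936 to 68583224 in vehicle controls. Read pairs in no gene were 3.36% to 5.05% with VNLG-152R, highest in replicate 2, and 2.63% to 3.17% in vehicle controls. The line's markers VIM, CD44, AXL and MSN lay at 574 CPM (counts scaled to the normalized library size) or above in every library. ESR1 (at most 0.0967 CPM), PGR (at most 0.58 CPM) and CDH1 (at most 0.698 CPM) were near 0, while EPCAM (11.0 to 15.7 CPM) was not. Of the markers of blood and endothelium, PTPRC and CD3E had at most 2 counts in a library and PECAM1 had 21.3 to 26.5 CPM.

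The hosts differ in what they carry. The gene records of RefSeq place 11 snoRNAs in GAS5, 10 of box C/D and 1 of box H/ACA. SNHG1 carries 9 small RNA records, 8 of them box C/D, SNHG16 carries 3 and SNHG5 carries 2, all box C/D, and SNHG6 carries 1 box C/D record. SNHG7 carries 2, SNHG8 carries 1 and SNHG15 carries 1, all box H/ACA, and SNHG12 carries 3 of box H/ACA and 1 of box C/D.

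The start regions are shown because a 5′TOP begins at the first base of the transcript. RefSeq promoter windows on GRCh38.p14 were given for 7 of the 9 genes. Each line holds 70 bases on the gene's strand, 40 before the annotated start and 30 from it. Capitals mark the longest run of at least 5 C or T letters that begins with C within 20 bases on either side of the start, and the motif TATAA 45 to 15 bases before the start.
GAS5 (chr1:173869016-173869085, minus strand): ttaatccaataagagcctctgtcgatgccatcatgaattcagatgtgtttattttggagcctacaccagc
SNHG1 (chr11:62855856-62855925, minus strand): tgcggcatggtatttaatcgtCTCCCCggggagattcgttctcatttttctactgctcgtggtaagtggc
SNHG5 (chr6:85678704-85678773, minus strand): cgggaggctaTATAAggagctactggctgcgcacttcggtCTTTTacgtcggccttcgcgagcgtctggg
SNHG7 (chr9:136728155-136728224, minus strand): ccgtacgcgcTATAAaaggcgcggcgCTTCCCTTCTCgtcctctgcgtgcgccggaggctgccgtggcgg
SNHG8 (chr4:118278722-118278791, plus strand): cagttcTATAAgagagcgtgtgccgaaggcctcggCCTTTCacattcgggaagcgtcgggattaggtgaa
SNHG12 (chr1:28581844-28581913, minus strand): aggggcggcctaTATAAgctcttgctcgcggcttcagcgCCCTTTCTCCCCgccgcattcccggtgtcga
SNHG16 (chr17:76557724-76557793, plus strand): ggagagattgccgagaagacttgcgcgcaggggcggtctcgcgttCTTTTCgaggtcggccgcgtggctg

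A pyrimidine run of at least 5 letters was found in 6 of the 7 windows, against 47.9% of 35114 RefSeq promoters searched the same way. The hosts were chosen as being of the 5′TOP type, so this comparison is not independent of the choice. The run began at the first annotated base in SNHG5 alone. Counted from the annotated start, it began at base -19 in SNHG1, -14 in SNHG7, -5 in SNHG8, -1 in SNHG12 and 6 in SNHG16. SNHG12 (12 letters) and SNHG7 (11 letters) had runs of 8 or more, which 13.8% of all promoters had. TATAA lay on the gene's strand in 4 of the 7 (SNHG5, SNHG7, SNHG8 and SNHG12), against 4.1% of all promoters. The GAS5 window had no run of 5, and its RefSeq start (173869045) lies outside the GAS5 span of GENCODE 29, which begins at 173868882 on the minus strand. The RefSeq start of SNHG12 (28581873) lies inside its GENCODE 29 span, which begins at 28583132 on the minus strand. Of the 7, SNHG7 alone had the same start in both (136728184). The runs and motifs are matches of letters and not mapped start sites.

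No host transcript was called higher or lower with VNLG-152R. The edgeR quasi-likelihood test with Benjamini-Hochberg adjustment over all genes called 0 of the 9 at an adjusted p under 0.05, while it called 3.76% of all genes tested higher and 1.43% lower. Before adjustment, 3 of the 9 (SNHG15, SNHG7 and SNHG6) had p under 0.05 in edgeR, as did 22.6% of all genes tested. The number was 7 with no filter and ran from 1 to 6 with a library left out. The share over all genes was not worked out for those fits, so these numbers have no background beside them. DESeq2 and limma-voom also called none. The fitted log2 fold change was negative in 8 of the 9, with a median of -0.24, against a median of -0.0024 over all genes. All 9 intervals of 95% lay within 1 log2 unit of 0 on both sides, so a change of 2-fold or more was outside each of them.

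**Figure D1:**
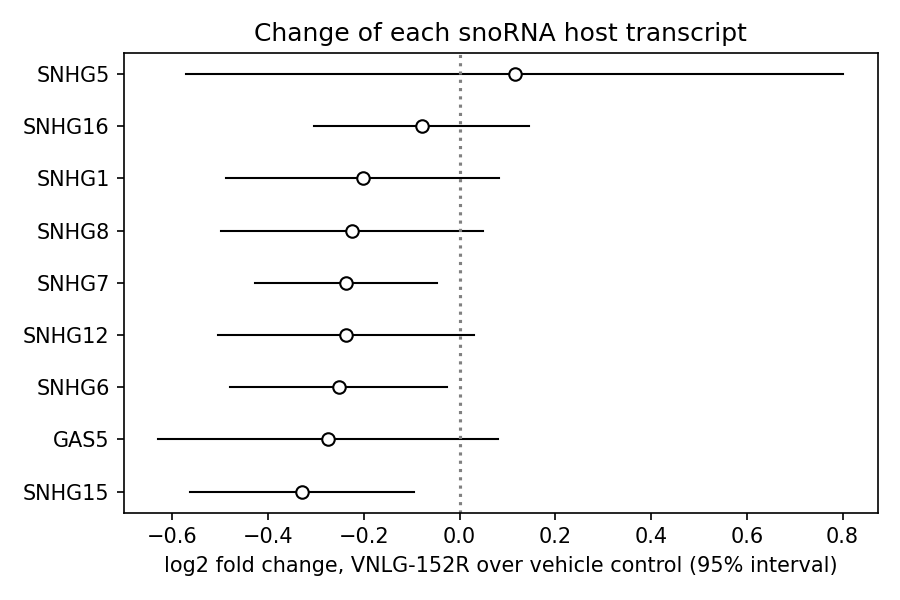
Fitted log2 fold change of each host transcript (horizontal axis, positive where VNLG-152R libraries are higher than vehicle controls), with its 95% interval (edgeR, 3 libraries each). SNHG15, SNHG7 and SNHG6 have intervals wholly below 0, SNHG5 has the widest interval, and no gene passed the adjusted threshold.

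GAS5 (ENSG00000234741, chr1:173863900-173868882, minus strand, 29 annotated transcripts) carries the most snoRNAs. It stood at 61.7, 111 and 79.1 CPM in the VNLG-152R libraries, against 107, 91.5 and 106 CPM in vehicle controls. Replicate 2 of the VNLG-152R group was the highest of all 6 libraries and replicates 1 and 3 were below every control, so the groups overlapped. The means were 83.9 ± 24.95 CPM with VNLG-152R and 101 ± 8.63 CPM in vehicle controls (SD, n = 3 each). The log2 fold change was -0.27 (SE 0.16, edgeR adjusted p = 0.35). Without VNLG-152R replicate 2, GAS5 was called lower at a log2 fold change of -0.53 (edgeR adjusted p = 0.0327), in a fit that called 0.82% of genes lower. Without VNLG-152R replicate 1 it was -0.09.

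SNHG1 (ENSG00000255717, chr11:62851988-62855914, minus strand), which carries a cluster of box C/D snoRNAs, showed the same order of libraries as GAS5 within each group. It stood at 38.1, 55.9 and 42.9 CPM with VNLG-152R, against 57.0, 46.4 and 54.2 CPM in vehicle controls. VNLG-152R replicate 2 lay within the range of the controls, and the other 2 VNLG-152R libraries lay below it. The log2 fold change was -0.20 (SE 0.13, edgeR adjusted p = 0.385). It was -0.37 once VNLG-152R replicate 2 was left out and -0.08 once replicate 1 was.

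SNHG16 (ENSG00000163597, chr17:76557766-76565348, plus strand), host of the SNORD1 box C/D snoRNAs, had the smallest change. Its levels were 54.2, 58.8 and 62.6 CPM with VNLG-152R, against 70.3, 54.3 and 61.0 CPM in vehicle controls. The groups overlapped over most of their range, with a log2 fold change of -0.08 (SE 0.10, edgeR adjusted p = 0.69) that became 0.02 without vehicle control replicate 1.

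SNHG6 (ENSG00000245910, chr8:66921684-66926398, minus strand), host of SNORD87, stood at 26.1, 33.3 and 27.6 CPM with VNLG-152R, against 37.8, 33.3 and 32.6 CPM in vehicle controls. VNLG-152R replicates 1 and 3 were below every control and replicate 2 was not. The log2 fold change was -0.25 (SE 0.10, unadjusted p = 0.0317, edgeR adjusted p = 0.174).

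SNHG5 (ENSG00000203875, chr6:85660950-85678748, minus strand), host of the SNORD50 pair, had the lowest counted level of the hosts. It was the most variable of the 9 with VNLG-152R but not in vehicle controls. It had 78, 293 and 170 counts, or 1.15, 3.83 and 2.05 CPM, with VNLG-152R, against 142, 135 and 133 counts, or 2.33, 2.24 and 1.95 CPM, in vehicle controls. The VNLG-152R group held both the lowest and the highest library of all 6. Its coefficient of variation was 58.1% with VNLG-152R and 9.15% in vehicle controls. The log2 fold change was 0.11 (SE 0.32, edgeR adjusted p = 0.862), the one positive value among the hosts, and it was -0.43 once VNLG-152R replicate 2 was left out and 0.44 once replicate 1 was.

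The hosts of box H/ACA snoRNAs included the only 2 genes whose groups did not overlap. SNHG15 (ENSG00000232956, chr7:44983023-44986961, minus strand), host of SNORA9, stood at 11.0, 13.6 and 12.6 CPM with VNLG-152R, against 15.9, 14.1 and 16.9 CPM in vehicle controls. Every VNLG-152R library lay below every control, which 13.4% of all genes tested did, and 15.1% lay wholly above. The means were 12.4 ± 1.31 CPM with VNLG-152R and 15.6 ± 1.42 CPM in vehicle controls (SD, n = 3 each). The log2 fold change was -0.33 (SE 0.11, unadjusted p = 0.00947, edgeR adjusted p = 0.0971), and 8.18% of all genes tested had a lower value.

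SNHG7 (ENSG00000233016, chr9:136721366-136728184, minus strand), host of the SNORA17 pair, stood at 42.1, 46.6 and 42.8 CPM with VNLG-152R, against 55.8, 48.7 and 50.5 CPM in vehicle controls. It was the second gene with no overlap, and its spread was the smallest of the 9 with VNLG-152R, at a coefficient of variation of 5.51%. The log2 fold change was -0.24 (SE 0.09, unadjusted p = 0.0181, edgeR adjusted p = 0.134).

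SNHG8 (ENSG00000269893, chr4:118278709-118279823, plus strand), host of SNORA24, stood at 19.2, 25.3 and 18.5 CPM with VNLG-152R, against 27.8, 22.4 and 23.3 CPM in vehicle controls. The groups overlapped through VNLG-152R replicate 2, and the log2 fold change was -0.22 (SE 0.13, edgeR adjusted p = 0.318). It was -0.38 without VNLG-152R replicate 2, -0.14 without VNLG-152R replicate 3 and -0.13 without vehicle control replicate 1. SNHG12 (ENSG00000197989, chr1:28578538-28583132, minus strand) was alone among the hosts in having VNLG-152R replicate 1 as its highest treated library. It stood at 14.8, 14.2 and 11.4 CPM with VNLG-152R, against 16.1, 13.7 and 17.8 CPM in vehicle controls, a log2 fold change of -0.24 (SE 0.12, edgeR adjusted p = 0.277). It was -0.13 without VNLG-152R replicate 3 and -0.15 without vehicle control replicate 3.

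**Figure D2:**
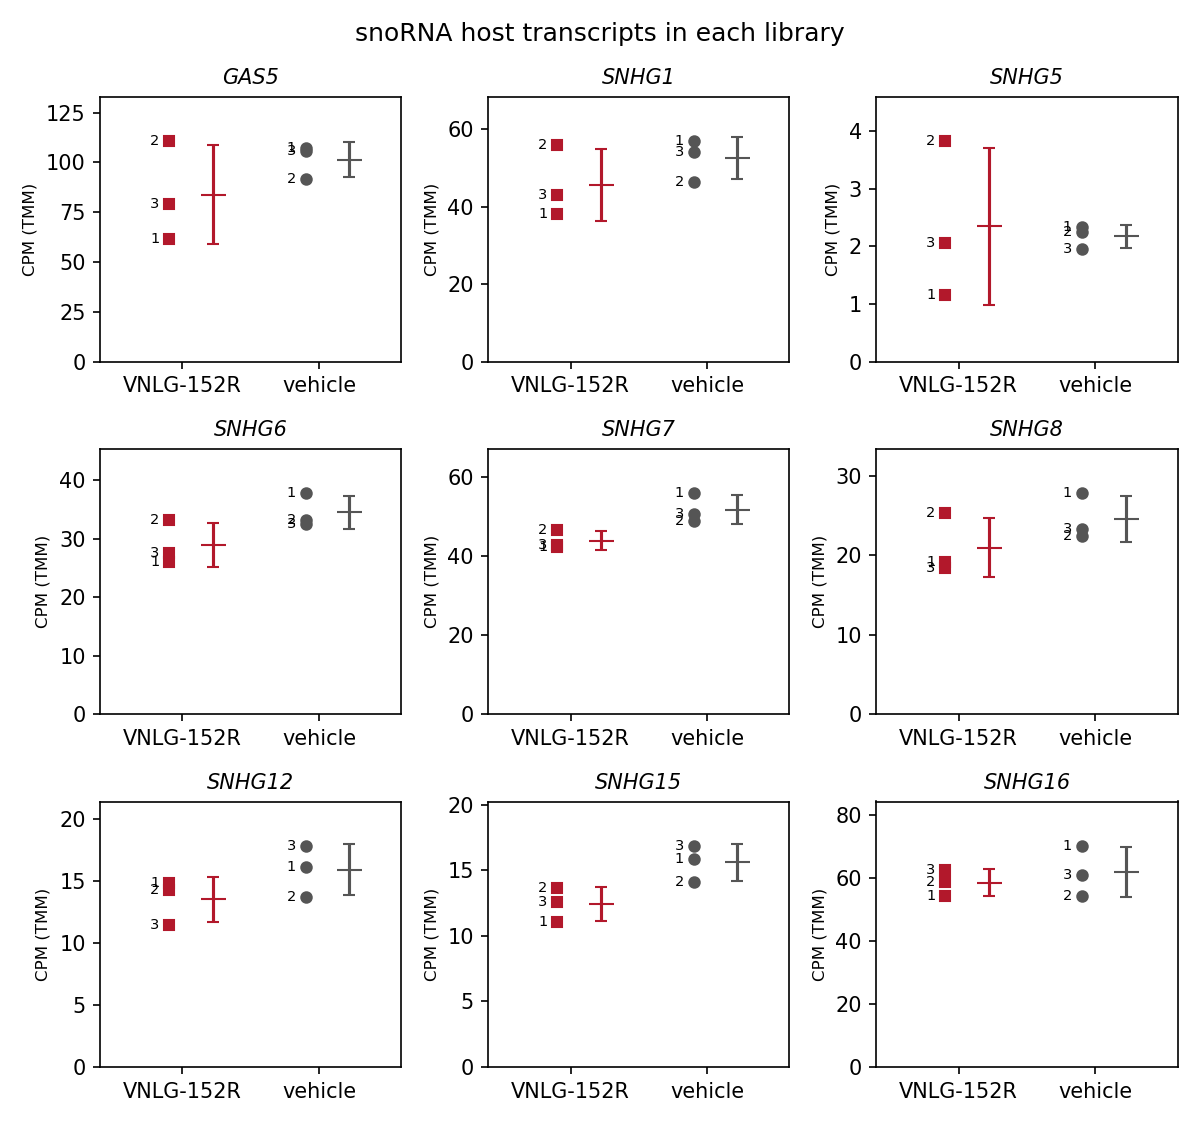
TMM-normalized CPM of each host transcript (vertical axes from 0, own scale each) in the VNLG-152R libraries (squares) and the vehicle controls (circles), numbered by replicate, with the mean and SD at the right of each group. Every VNLG-152R library is below every control in SNHG7 and SNHG15 alone, and VNLG-152R replicate 2 is the highest treated library in 7 of the 9 panels.

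Levels can be ranked between genes only per length. Per kilobase of merged exons, the vehicle controls had 27.9 ± 2.38 CPM of GAS5, 27.7 ± 2.27 of SNHG6 and 26.6 ± 3.13 of SNHG8 (SD, n = 3), and these 3 ranges overlapped. SNHG1 (14.0 ± 1.46), SNHG7 (11.9 ± 0.849) and SNHG16 (11.5 ± 1.5) formed a second overlapping group. SNHG15 (4.28 ± 0.389) and SNHG12 (3.72 ± 0.482) overlapped each other, and SNHG5 (0.776 ± 0.071) lay below all. With VNLG-152R the 3 highest were SNHG6 at 23.2 ± 3.04, GAS5 at 23.1 ± 6.87 and SNHG8 at 22.7 ± 4.04 CPM per kilobase. The merged exons include intron-retaining isoforms, which lowers the value per kilobase of genes with many of them. Pairs that were ambiguous or not unique were left out of the counts, which may lower some genes more than others. The ranking is therefore of counted levels.

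The hosts varied together between libraries. Relative to its own group's mean, VNLG-152R replicate 2 was positive in 9 of the 9 hosts, replicate 3 in 2 and replicate 1 in 1. Over all genes these libraries were positive in 49.2%, 53.3% and 50.8%. Among vehicle controls, replicate 1 was positive in 9 of 9, replicate 3 in 4 and replicate 2 in 1. The summed level of the 9 hosts was 268, 362 and 299 CPM with VNLG-152R (310 ± 48.0, SD, n = 3), against 390, 327 and 364 CPM in vehicle controls (360 ± 31.9, SD, n = 3). These sums overlapped, and the VNLG-152R library with the highest sum was also the one with the most pairs in no gene, 5.05%. Its part in the result was not tested.

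**Figure D3:**
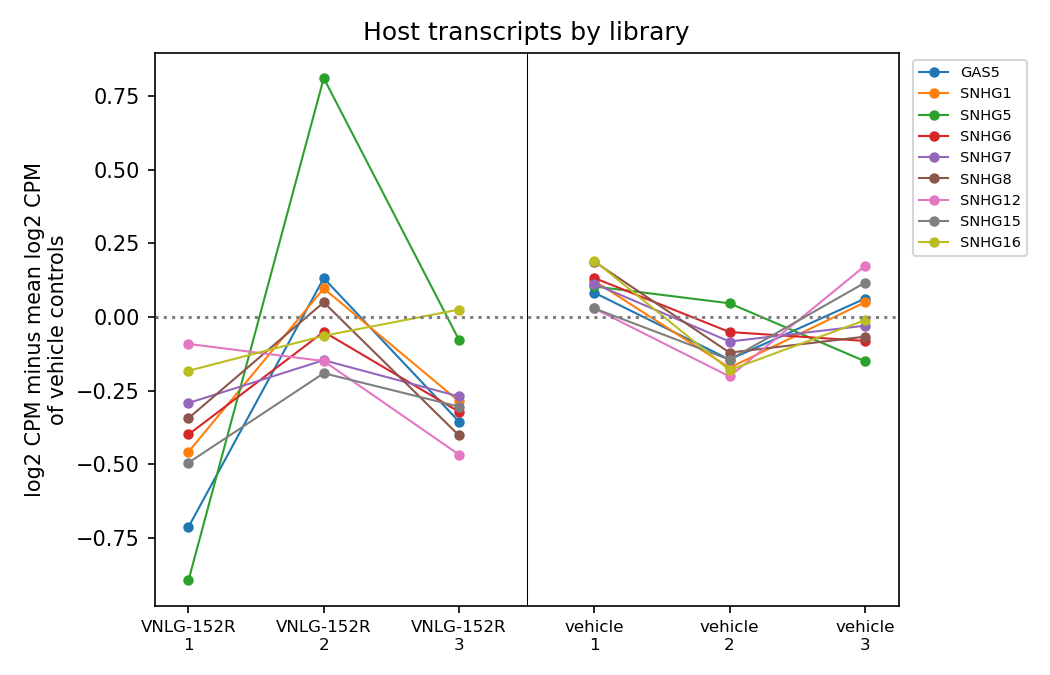
Log2 CPM of each host transcript minus its mean log2 CPM in the vehicle controls (vertical axis), for each of the 6 libraries, with lines joining the libraries of one group only to guide the eye. GAS5 and SNHG5 are spread most in the VNLG-152R group, and replicate 2 of that group is the highest of the treated libraries in 7 of the 9.

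The order of replicate 1 below 3 below 2 within the VNLG-152R group was found in 6 of 9 hosts, 39 of 76 ribosomal protein genes and 20% of all genes. VNLG-152R replicate 2 was the highest treated library in 7 of 9 hosts, 54 of 76 ribosomal protein genes and 33% of all genes. Among other non-coding hosts the order was mixed. SNHG29 had the same order at 239, 459 and 320 CPM with VNLG-152R, against 331, 338 and 352 CPM in vehicle controls. SNHG17 did not, at 35.6, 33.3 and 31.3 CPM with VNLG-152R. The 5 genes of at least 10 CPM whose profile over the 6 libraries was most like the mean of the hosts were SAT1 (r = 0.99), MRPL51 (r = 0.99), SERF2 (r = 0.99), COA3 (r = 0.99) and BOLA3 (r = 0.98). The 6 points share library and depth, and the values are a description.

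**Figure D4:**
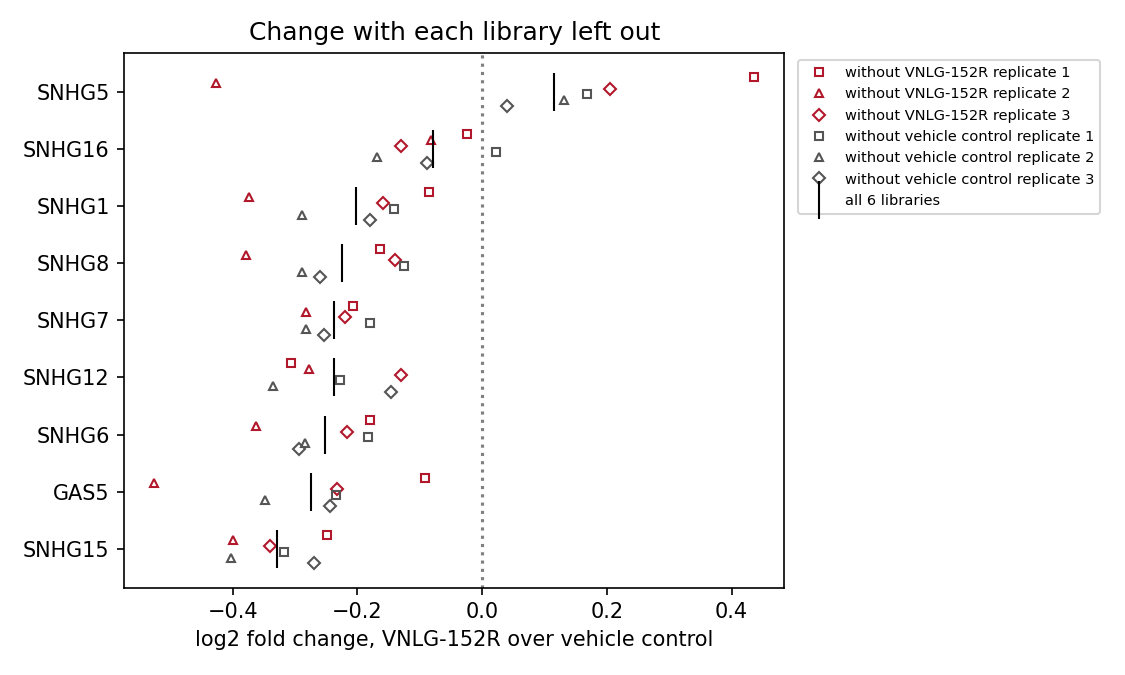
Change of each host transcript on the log2 scale (horizontal axis, positive where higher with VNLG-152R than in vehicle controls), with all 6 libraries (vertical bar) and with each library left out (symbols, red for VNLG-152R and grey for vehicle control). GAS5, SNHG1, SNHG5, SNHG6 and SNHG8 move farthest down when VNLG-152R replicate 2 is left out, and SNHG5 then crosses 0. SNHG16 crosses 0 when vehicle control replicate 1 is left out.

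Almost no reads were counted at the snoRNA entries placed inside the hosts. GENCODE 29 places 23 such entries inside 8 of the 9 hosts and 0 inside GAS5, so the snoRNAs of GAS5 were not looked up. Some entries lie over one another, as those named SNORA17B do. Of the 23 entries, 21 overlap exons of their host and had 0 counts in all 6 libraries. The 2 outside host exons were SNORD99 in SNHG12, with 7, 3 and 6 counts with VNLG-152R and 12, 6 and 3 in vehicle controls, and SNORD1B in SNHG16, with 0, 0 and 0 with VNLG-152R and 1, 0 and 0 in vehicle controls. PolyA selection takes few mature snoRNAs, and pairs over 2 overlapping genes are assigned to neither in the usual HTSeq setting. Exons shared with other genes on the same strand were 15.3% of the merged exons of SNHG1 and 14.2% of those of SNHG8. Exons antisense to another gene were 30.6% in SNHG16, 29.3% in SNHG6 (with MCMDC2) and 25.2% in SNHG7 (with FAM69B). Because the strand setting of the counting is not given in the sources used here, reads of these 3 hosts and their antisense partners may not be told apart.

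Divergent neighbours start within 1000 bases of a host on the other strand. ZBTB37, a zinc finger gene that starts 800 bases from GAS5, stood at 11.7, 14.3 and 12.1 CPM with VNLG-152R, against 9.06, 8.52 and 9.01 CPM in vehicle controls. Every treated library was above every control, and the log2 fold change was 0.52 (SE 0.10, edgeR adjusted p = 0.0165). The call was lost with a correction for transcript length, at 0.22 (adjusted p = 0.297), and without VNLG-152R replicate 2 (adjusted p = 0.0503), vehicle control replicate 2 (adjusted p = 0.0557) or vehicle control replicate 3 (adjusted p = 0.0735), all edgeR. SLC3A2, the heavy chain of amino acid transporters, starts 188 bases from SNHG1 and had a log2 fold change of 0.14 (edgeR adjusted p = 0.433). The antisense gene AC015802.4, 83 bases from SNHG16, had 0.68 (edgeR adjusted p = 0.21), with 13 to 35 counts a library.

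Other genes of the same biology were read from fixed lists, which share some genes. DKC1, NOP56 and NOP58 were among both the coding hosts and the snoRNA particle proteins. EEF1B2, EEF2, RACK1 and TPT1 were among both the coding hosts and the other 5′TOP mRNAs. PABPC1 was among both the other 5′TOP mRNAs and the regulators of 5′TOP translation. For comparison with each list, 8603 of 17084 genes tested had negative values, and edgeR called 3.76% higher and 1.43% lower. Of 22 other non-coding hosts, 17 were tested and 0 were called in edgeR or DESeq2 (1 with unadjusted p under 0.05 in edgeR, against 22.6% of all genes). The median was -0.03, and it ran from -0.16 to 0.06 over the alternatives, and 11 values were negative. DANCR had the smallest p in this list (log2 fold change -0.28, edgeR adjusted p = 0.0817). It stood at 13.5, 14.2 and 14.0 CPM with VNLG-152R, against 17.1, 16.2 and 17.3 CPM in vehicle controls. SNHG9 followed at -0.42 (edgeR adjusted p = 0.271), with 44 to 56 counts a library. Of 22 coding hosts, 20 had a negative value, the median was -0.17, 2 were called lower and 0 higher. They were HSPA8, a constitutive chaperone (-0.38, edgeR adjusted p = 0.0263), and DKC1, the pseudouridine synthase of box H/ACA particles (-0.31, edgeR adjusted p = 0.04995). DESeq2, which called 537 genes lower over all genes tested, called 6 of these hosts lower. In edgeR, leaving out any 1 library gave 0, except VNLG-152R replicate 1, which gave 1.

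Ribosomal protein genes, the classical 5′TOP genes, had negative values in 73 of 76 tested, at a median of -0.22. RPS12 (-0.46, edgeR adjusted p = 0.0266), RPL19 (-0.32, edgeR adjusted p = 0.0436) and RPS24 (-0.33, edgeR adjusted p = 0.0485) fell, and 0 rose. DESeq2 called 13 lower, among the 537 genes it called lower over all genes tested. In edgeR, leaving out VNLG-152R replicate 2 gave 15, in a fit that called 142 of 17316 genes (0.82%) lower. Leaving out vehicle control replicate 2 gave 2, and VNLG-152R replicate 3 or vehicle control replicate 1 or 3 gave 0. RPS12 stood at 201, 257 and 214 CPM with VNLG-152R, against 332, 283 and 309 CPM in vehicle controls. Of 19 other 5′TOP mRNAs tested, 16 were negative with a median of -0.14. NACA, a subunit of the nascent polypeptide complex (-0.42, edgeR adjusted p = 0.0423), and VIM, vimentin (-0.39, edgeR adjusted p = 0.0472), fell and 0 rose. The count was 1 without VNLG-152R replicate 1 or vehicle control replicate 2, and 0 without any other single library.

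Of 15 genes for snoRNA particle proteins and their assembly, 14 were negative with a median of -0.15. Those called lower were DKC1 and NHP2, a box H/ACA core protein (-0.34, edgeR adjusted p = 0.03), and 0 were called higher. With the length correction, or without any single library other than VNLG-152R replicate 1, 0 were called lower. Of 20 NMD factors, the kinase SMG1 (0.45, edgeR adjusted p = 0.0461) and the exonuclease XRN1 (0.43, edgeR adjusted p = 0.0153) rose and the exon junction protein RBM8A fell (-0.35, edgeR adjusted p = 0.0409). With the length correction 0 NMD factors were called higher, and also without vehicle control replicate 1 or 3. Without VNLG-152R replicate 1, 2 or 3, 1 was. Leaving out any single library left 0 called lower. None of 8 known NMD substrates was called in edgeR or DESeq2 (median 0.04, 3 with unadjusted p under 0.05, against 22.6% of all genes), with ATF4 at -0.21 and TBL2 at 0.22. None of 12 regulators of 5′TOP translation was called in either tool (median -0.04, 2 with unadjusted p under 0.05, against the same 22.6%), with EIF4EBP1 at -0.23 and CNBP at -0.20.

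**Figure D5:**
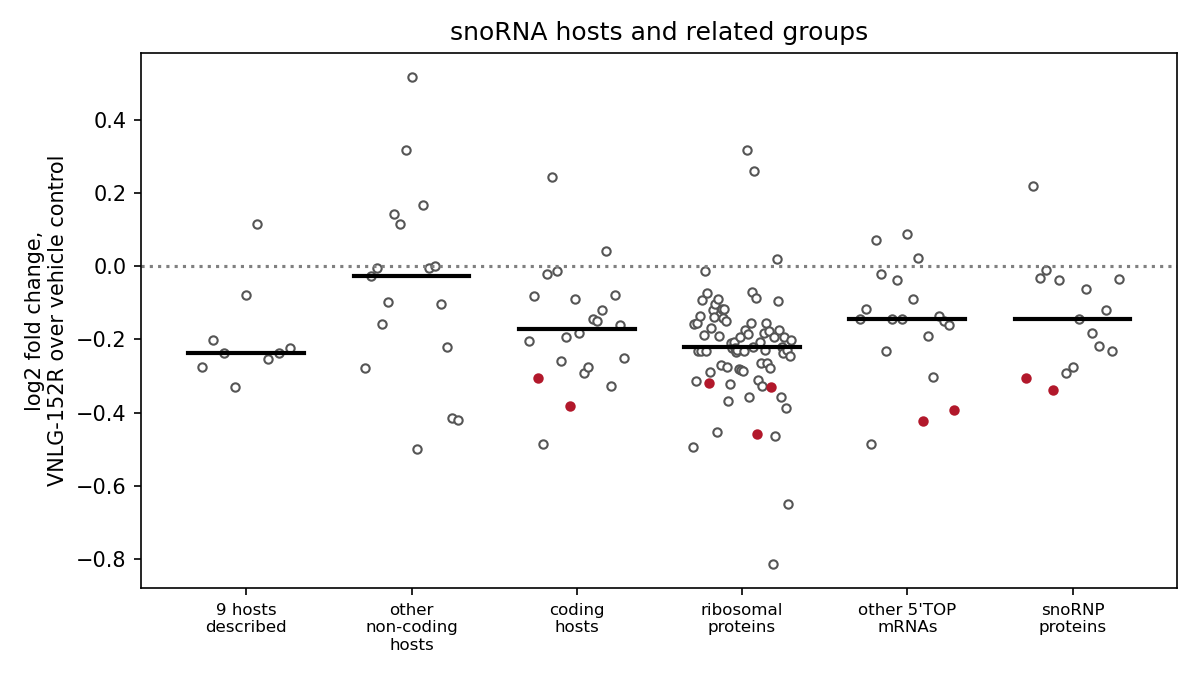
Change on the log2 scale (vertical axis, positive where higher with VNLG-152R than in vehicle controls) of each gene in 6 groups, with red filled points for genes called in edgeR and black lines for the group medians. The 9 hosts have a median of -0.24 and no filled point, near the ribosomal protein median of -0.22, while the other non-coding hosts have -0.03.

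Transcript length and log2 fold change had a Spearman correlation of 0.22 over 16731 genes, given as a description across genes. The decile medians did not fall steadily with shorter length, since decile 1, which holds SNHG6 and SNHG8, had -0.04 and decile 2 had -0.10. The longest annotated transcripts of the hosts run from 648 bases in SNHG6 to 3607 in SNHG16, which are length deciles 1 to 6. The median log2 fold change of these deciles was between -0.10 and -0.03, and every host except SNHG5 lay below the median of its own decile. With the length correction GAS5 was at -0.21 and SNHG15 at -0.30.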

How the data were processed

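The authors deposited, for each of the 6 libraries, raw counts by Ensembl gene identifier. The libraries were strand-specific and polyA-enriched, sequenced as paired ends. The submitters' processing notes name HISAT, HTSeq, DESeq and GRCh38, with no versions. The annotation release and strand setting: not given in the sources used here. Pairs in no gene, ambiguous or not unique were left out of the totals.

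The test was the quasi-likelihood F test in edgeR 4.0.16 under R 4.3.3 (TMM factors, filterByExpr, Benjamini-Hochberg adjustment over 17084 genes, threshold 0.05). With 3 libraries against 3, the spread rested on 4 residual degrees of freedom, 12.4 with the prior, and the coefficient of variation was 0.105. An exact permutation test of 3 against 3 could not go below 0.1 and was not used. No 2 libraries held identical counts. Alternatives were other size factors, other filters, DESeq2 1.42.0, limma-voom (limma 3.58.1), a replicate block, a length correction, thinning, another threshold and each library left out. The fit was tested on simulated data.

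Coordinates, lengths and overlaps came from GENCODE 29 on GRCh38, and the start regions from RefSeq on GRCh38.p14. Named were all 9 hosts, the called genes of each list (up to 4 with the smallest p in each direction, or up to 2 with the smallest p where none was called), divergent neighbours within 1000 bases and the 5 most similar profiles. SNHG29 and SNHG17 were named outside these rules, as examples of library order. The genes and lists were chosen with earlier results of these data known. EEF1G, whose exons lie 99.9% within those of another gene, had 0 counts. RPS10 (39.4% of exons shared on the same strand) had 0.781 to 1.65 CPM and RPL7A (12.7%) had 0.197 to 0.379 CPM, both with positive values. RPS2 (25.6%) had 1199 to 1394 CPM. RPS9 had 1.15 CPM in VNLG-152R replicate 1, against 62.4 to 71.8 CPM in the other libraries. The cause was not tested. Some marker genes are not reported here.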

Additional observations from a re-analysis of the deposited data

How the results depend on the processing

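The hosts were called 0 times in either direction under every alternative run except the fit without VNLG-152R replicate 2, where 1 (GAS5) was called lower, so that the count of hosts called lower ran from 0 to 1 with a library left out. SNHG5 turned negative with limma-voom (-0.0326) and with the replicate block (-0.0184), and it ran from -0.4266 to 0.4365 with a library left out. SNHG16 ran from -0.1689 to 0.0215, positive without vehicle control replicate 1. The other 7 hosts were negative under all 16 alternatives, and the median over the hosts ran from -0.37 to -0.16. With no filter, 16 ribosomal protein genes were called lower, against 3 with it, and over all genes 483 were, against 245. The cause of these shifts was not tested.

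Over all genes, 642 were called higher and 245 lower. No filter gave 1056 and 483, DESeq2 gave 964 and 537, and a fold of at least 2 with unadjusted p under 0.01 gave 176 and 39. With each library left out, 220 to 601 were called higher and 44 to 347 lower. The replicate block gave 310 and 87, and the block with the length correction gave 205 and 57. Under the block 0 genes were called in the lists of coding hosts, ribosomal proteins, other 5′TOP mRNAs, snoRNA particle proteins and NMD factors. There 1 host had unadjusted p under 0.05, and the share over all genes was not worked out under the block. ZBTB37 was then at 0.51 (edgeR adjusted p = 0.0593), and at 0.21 with the length correction as well (edgeR adjusted p = 0.512). Libraries of the same number did not deviate together (correlations -0.19, -0.17 and -0.11), so the numbers were not read as pairs. SNHG5 had the fewest counts of the hosts, at 78 to 293 a library.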
